A study of Macaca fascicularis with 6 samples.

Results

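The receptors through which a liver X receptor (LXR) ligand acts, and the cofactors those receptors bind, were followed in liver of cynomolgus macaques (Macaca fascicularis) given such a ligand or vehicle. The set was named as 9 genes: NR1H3 and NR1H2, which encode LXR alpha and LXR beta; RXRA and RXRB, which encode retinoid X receptors (RXR); and the cofactors NCOR1, NRIP1, GPS2, NCOA1 and MED1. Every probe set with 1 of these symbols as its only annotated gene was taken, which gave 17 probe sets for 7 of the 9 genes, out of 54675 probe sets and 19775 genes named singly on the array. NR1H2 and NCOR1 had no such probe set in the annotation used here, so they were not analysed here.

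Liver RNA of 6 animals had been hybridised to Affymetrix arrays, with 1 animal on each array. The vehicle group, titled Liv_Veh, and the ligand group, titled Liv_GW and labelled LXR for treatment, held 3 animals each. The ligand's identity, its dose, the length of treatment and the age, sex and origin of the animals were not given in the sources used here. The arrays were designed against human transcripts, so macaque RNA was read by human probes and each gene carries its human symbol. Values are MAS5 signals, a linear intensity in arbitrary units.

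LXR binds DNA as a pair with RXR and is activated by oxidised forms of cholesterol. Without ligand the pair holds corepressor complexes on its target genes, in which NCOR1 is a scaffold and GPS2 a subunit. Ligand changes the shape of the receptor so that coactivators such as NCOA1 and the MED1 subunit of Mediator are recruited, and genes of sterol efflux and fatty acid synthesis are transcribed in liver. The receptor is thus switched by the ligand as a protein, and the arrays measured the RNA that encodes it and its partners.

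The comparison asked whether these RNAs differed between animals given the ligand and animals given vehicle. No member probe set passed. Of the 17, 16 were bright enough to be tested, with a mean signal over the 6 arrays of at least 129, the median of all probe sets. Of these 16, 7 were higher and 9 lower with the ligand, or 5 higher after median centring, beside 50.3% higher over all tested probe sets. The 7 include MED1 203496_s_at, whose mean with vehicle, 128.8, was below the limit of 129.3. The scale is log2(signal + 16), which is used for every log2 difference given here and understates the change of dim probe sets. In limma's moderated test with Benjamini-Hochberg adjustment over all 27304 probe sets tested, 0 of the 16 had an adjusted p under 0.05, and their adjusted p ran from 0.880 to 0.999. The same fit called 0 of all tested probe sets, a background of 0%, with a lowest adjusted p of 0.319. At an unadjusted limma p under 0.05 the count was also 0 of 16 for the members, against 5.58% of all tested probe sets.

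The differences of the members were of a size common on the array. Their median absolute log2 difference was 0.23, beside 0.25 over all tested probe sets, and their median log2 difference was -0.0093, beside 0.0032. For 13 of the 16 the 95% interval of the difference lay wholly inside a 2-fold change in either direction. The 3 exceptions were 1 probe set each of RXRA, RXRB and MED1. The width of an interval follows its SE, and the median SE was 0.26 for the members, beside 0.35 over all tested probe sets.

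**Figure D1:**
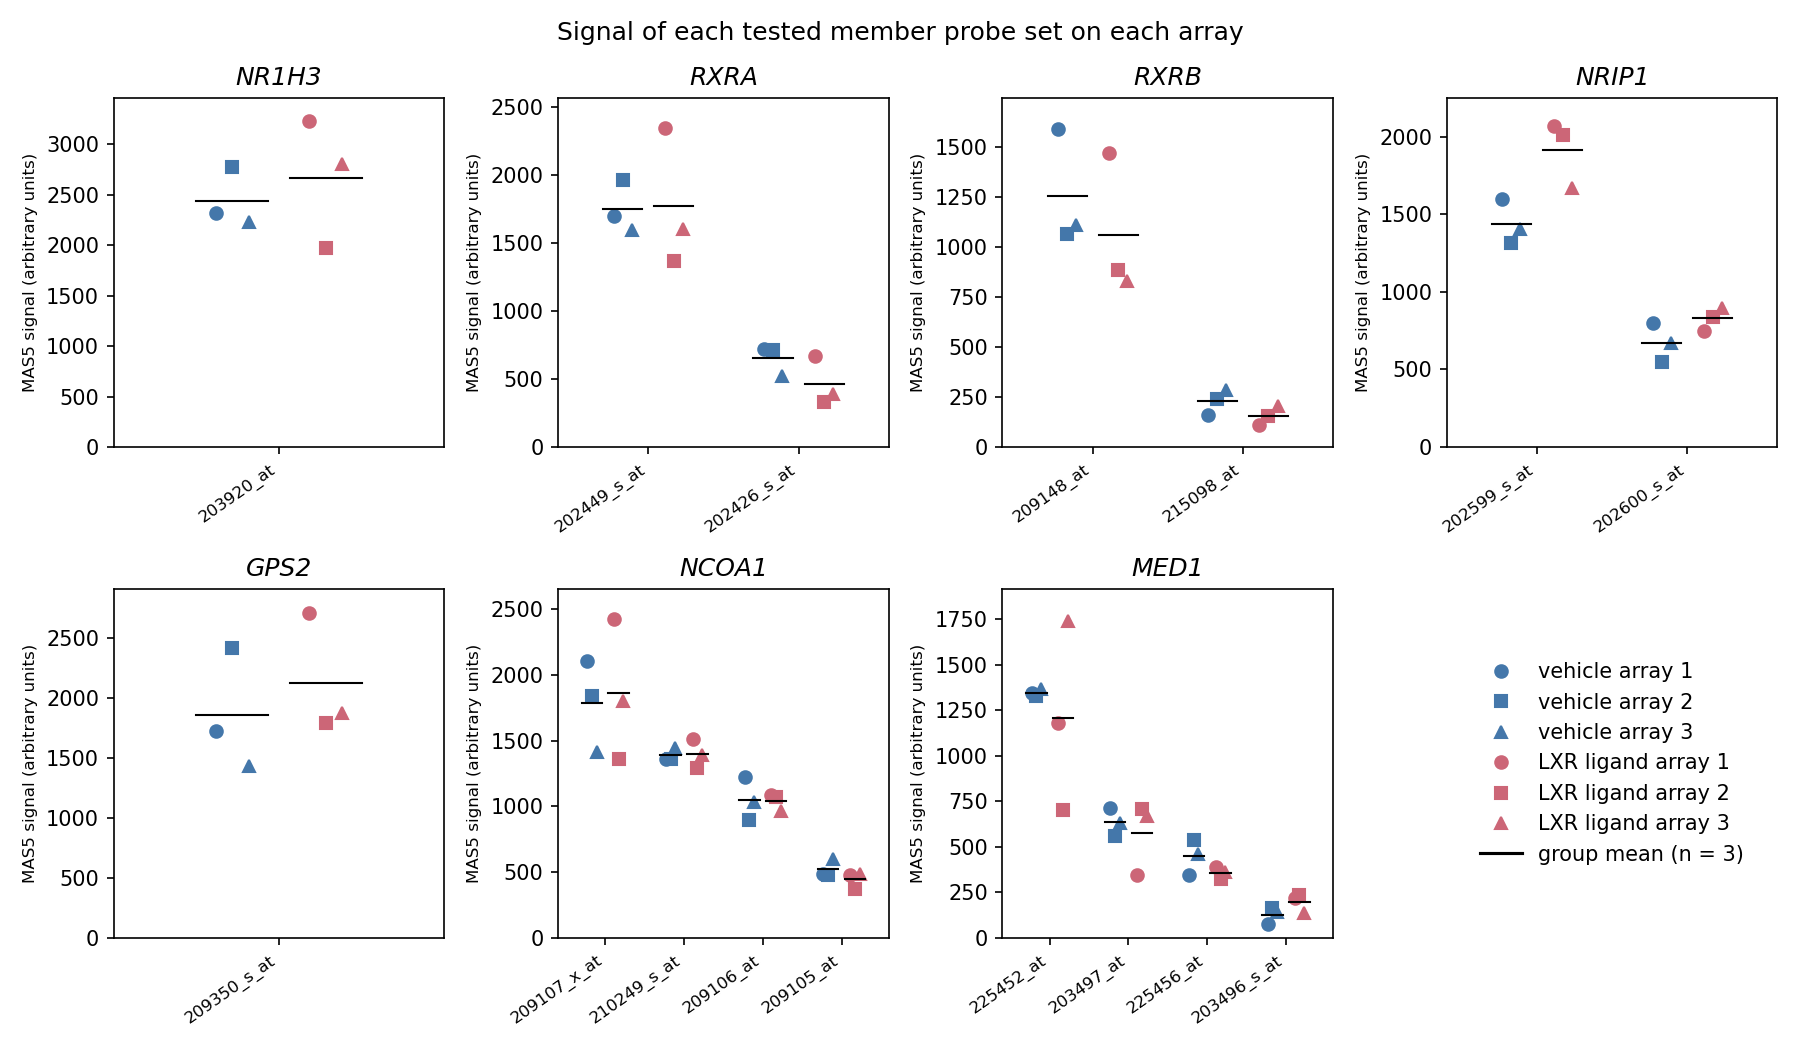
Signal (vertical axis, MAS5 arbitrary units, linear from 0) of the 16 tested member probe sets (horizontal axis, by identifier) on each of the 6 arrays, 1 panel for each gene; blue is vehicle, red is LXR ligand, marker shapes are array numbers and black lines are group means (n = 3). The red and blue points overlap for 15 of the 16 probe sets, and NRIP1 202599_s_at is the exception.

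NR1H3 encodes LXR alpha, the LXR form that is abundant in liver. Its only probe set, 203920_at, read 2314, 2769 and 2229 with vehicle and 3230, 1972 and 2807 with the ligand. Signals are listed here and below in the order of array numbers 1, 2 and 3. The ligand group thus held both the highest and the lowest value, and the groups overlapped. The mean was 2437 ± 291 (SD, n = 3) with vehicle and 2669 ± 640 (SD, n = 3) with the ligand. The log2 difference was 0.11 ± 0.23 (SE), with a 95% interval from -0.41 to 0.62, which leaves room for a 1.54-fold higher but not for a 2-fold higher signal. Without ligand array 1 it was -0.044, so the direction was not settled.

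RXRA encodes RXR alpha, the main RXR of hepatocytes and the partner of LXR, PPAR alpha and other receptors. Its brighter probe set, 202449_s_at, had signals of 1700, 1967 and 1595 with vehicle and 2345, 1369 and 1606 with the ligand. Ligand array 1 was the highest and ligand array 2 the lowest of all 6, as for NR1H3. The log2 difference was -0.016 ± 0.25 (SE), or -0.23 without ligand array 1 and 0.15 without ligand array 2. The second probe set, 202426_s_at, had signals of 724, 716 and 525 with vehicle and 667, 334 and 393 with the ligand. Ligand arrays 2 and 3 lay below all vehicle arrays and ligand array 1 lay among them. That probe set had a log2 difference of -0.53 ± 0.31 (SE), a 95% interval from -1.22 to 0.17 and a limma adjusted p of 0.895. Without ligand array 1 its log2 difference was -0.81, with an unadjusted limma p of 0.0239 and an adjusted p of 0.903, and without ligand array 2 it was -0.33. The RXRA probe sets were therefore alike in which ligand array was highest and unlike in the size of the group difference.

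RXRB encodes RXR beta, a more broadly expressed RXR. Probe set 209148_at had signals of 1590, 1064 and 1112 with vehicle and 1470, 887 and 832 with the ligand, with a log2 difference of -0.26 ± 0.28 (SE). Vehicle array 1 and ligand array 1 were the high values of their groups and the groups overlapped. Probe set 215098_at was dimmer, with signals of 158, 243 and 287 with vehicle and 110, 155 and 205 with the ligand. Its log2 difference was -0.51 ± 0.43 (SE), with a 95% interval from -1.45 to 0.44 and overlapping groups, and it was -0.30 without ligand array 1. The third probe set, 215099_s_at, was below the limit for testing and read 53.1, 166 and 33.7 with vehicle and 24.7, 132 and 22.2 with the ligand. On that probe set array 2 was the high value in both groups. Without vehicle array 1 the log2 difference of 209148_at was -0.080, and without ligand array 1 it was -0.52.

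All 4 tested probe sets of the RXR genes had a log2 difference below 0 on the 6 arrays, and none passed. Over all tested probe sets, 50.3% were above 0. The 4 probe sets are read from the RNA of 2 genes. They stayed below 0 after quantile normalization, with RXRA 202449_s_at at -0.0030, but that probe set was 0.15 without ligand array 2. Median centring lowered every log2 difference by the same amount, so it could not turn them. Whether RXRA and RXRB responded unequally was asked on the log2 difference between their brightest probe sets within each array. That quantity was 0.50 ± 0.39 (SD, n = 3) with vehicle and 0.74 ± 0.17 (SD, n = 3) with the ligand. An exact two-sided permutation test gave p = 0.40, where 3 arrays against 3 cannot go below 0.10.

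**Figure D2:**
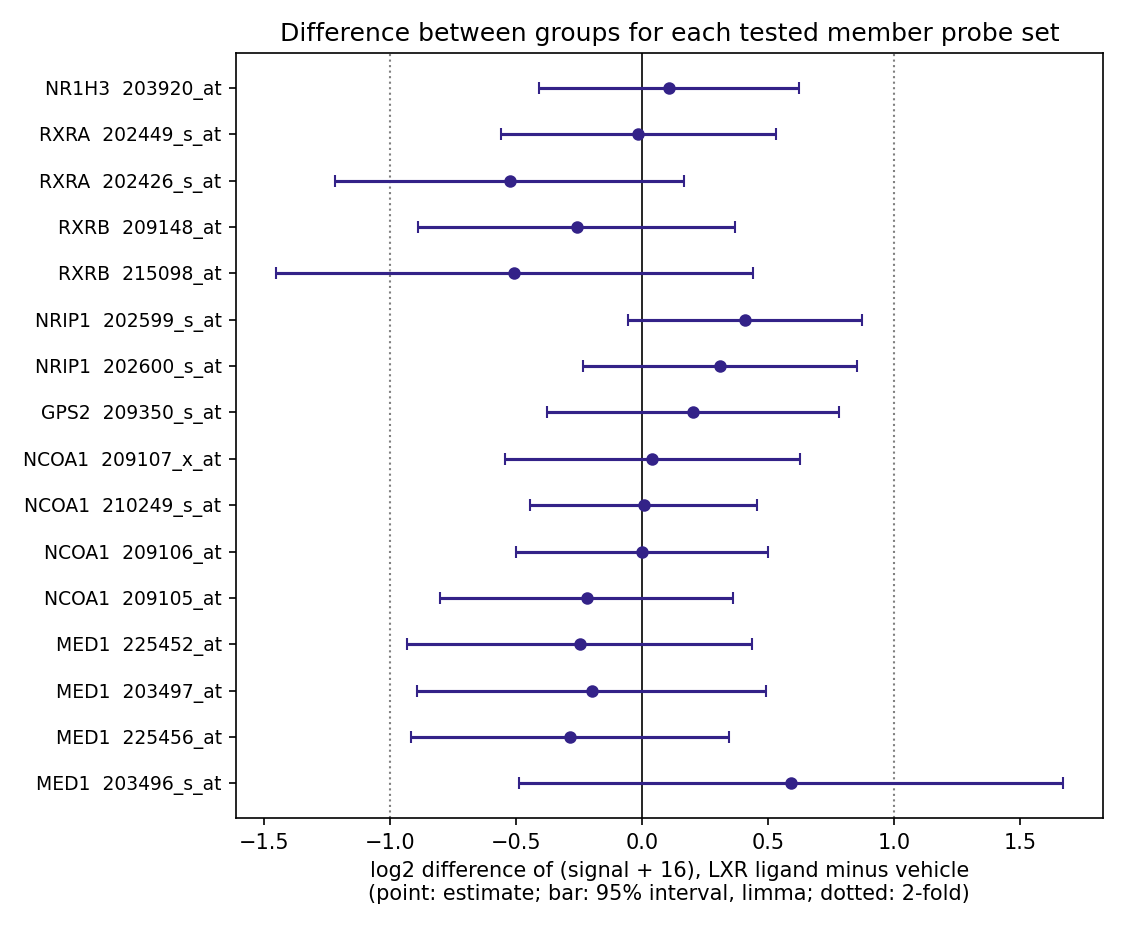
log2 difference of (signal + 16), LXR ligand minus vehicle (horizontal axis), for each tested member probe set (rows); points are estimates, bars are limma's 95% intervals from 6 arrays, and dotted lines mark a 2-fold change. Every bar crosses 0, and the bars of RXRA 202426_s_at, RXRB 215098_at and MED1 203496_s_at are the only ones that cross a dotted line.

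NRIP1 encodes RIP140, a cofactor that binds ligand-bound nuclear receptors and mostly represses them. Probe set 202599_s_at had signals of 1596, 1313 and 1405 with vehicle and 2065, 2008 and 1669 with the ligand. All 3 ligand arrays lay above all 3 vehicle arrays, although vehicle array 1 and ligand array 3 were close. The vehicle mean was 1438 ± 145 (SD, n = 3) and the ligand mean 1914 ± 214 (SD, n = 3), a 1.33-fold higher signal. The log2 difference was 0.41 ± 0.21 (SE), with a 95% interval from -0.056 to 0.87, an unadjusted limma p of 0.0787 and an adjusted p of 0.880. Leaving out 1 array at a time gave 0.34 to 0.50, and the limma adjusted p over all 15 alternatives was 0.778 to 0.946. This was the smallest p among the members.

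The second NRIP1 probe set, 202600_s_at, had signals of 800, 547 and 671 with vehicle and 751, 839 and 899 with the ligand. Its log2 difference was 0.31 ± 0.25 (SE), in the same direction as the first, with vehicle array 1 above ligand array 1, and it was 0.17 without vehicle array 2. Both NRIP1 probe sets are read from the same RNA and do not count as separate evidence. Over the 16 tested member probe sets, 1 had groups that did not overlap, beside 11.0% of all tested probe sets. By direction that background was 5.99% higher and 4.96% lower, so the member count is close to the share found over all probe sets.

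Markers of macrophages were higher with the ligand, as NRIP1 was. Of the 11 listed, 9 were measured and 9 of 9 had a log2 difference above 0, beside 50.3% of all tested probe sets. That share also stands beside the counts of stellate and endothelial markers below. For 5 of the 9 the groups did not overlap, beside 5.99% of all tested probe sets that were higher in this way. The summed signal of the 9 was 11287 to 15233 on the vehicle arrays and 19272 to 25114 on the ligand arrays, and none was at 0. MSR1, 1 of the 9, reached the limit for testing only through its ligand arrays, with a mean of 125 with vehicle and 138 with the ligand. Stellate cell markers, 6 of 8 higher, had a summed signal of 16941 to 26601 with vehicle and 32567 to 45550 with the ligand. The 2 brightest of them, DCN and COL3A1, carried that distance, and the other 6 gave overlapping sums of 4882 to 6518 and 5811 to 8115. Of endothelial markers 8 of 9 were higher, and those 8 summed to 7538 to 9306 with vehicle and 10116 to 12912 with the ligand. The ninth, VWF, read 4667, 2129 and 1340 with vehicle and 157, 156 and 377 with the ligand, at a limma adjusted p of 0.319, and with it the endothelial sums overlapped, at 10457 to 12205 and 10272 to 13289. DCN, COL3A1 and VWF were named, and these sums taken apart, after their values were seen. The part of these cell types in the NRIP1 values was not tested. The summed signal of 9 measured hepatocyte markers, which were bright on every array as the liver label requires, was 714851 to 854808 with vehicle and 779348 to 866959 with the ligand, 2 overlapping ranges. In a piece of tissue, a change in the number of cells of a type and a change in RNA per cell cannot be told apart.

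GPS2 encodes a small subunit of the NCOR corepressor complex. Its probe set, 209350_s_at, had signals of 1728, 2416 and 1433 with vehicle and 2708, 1793 and 1875 with the ligand. The highest value was on ligand array 1 and the next on vehicle array 2, and the groups overlapped. The log2 difference was 0.20 ± 0.26 (SE), with a 95% interval from -0.38 to 0.78, and without ligand array 1 it was 0.014.

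NCOA1 encodes SRC-1, a coactivator that docks on ligand-bound receptors and brings in histone acetyltransferases. Its 4 probe sets were all tested, and their log2 differences were 0.040 ± 0.26, 0.0048 ± 0.20, -0.0030 ± 0.23 and -0.22 ± 0.26 (SE) for 209107_x_at, 210249_s_at, 209106_at and 209105_at. The tightest of them, 210249_s_at, had signals of 1362, 1363 and 1447 with vehicle and 1511, 1293 and 1389 with the ligand. Its 95% interval, from -0.45 to 0.46, was the narrowest of any member. Probe set 209107_x_at varied most within the groups, from 1415 to 2102 with vehicle and from 1362 to 2425 with the ligand, with ligand array 1 the highest and ligand array 2 the lowest. Its log2 difference was -0.17 without ligand array 1 and 0.24 without ligand array 2. The suffix x marks a probe set whose probes can also bind other transcripts, so its values may not be from NCOA1 alone.

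MED1 encodes the Mediator subunit that contacts nuclear receptors and links them to RNA polymerase. Its 4 probe sets did not behave alike. Probe set 225452_at had signals of 1345, 1332 and 1367 with vehicle and 1179, 705 and 1743 with the ligand. The vehicle arrays were close to each other (SD 17.8) and the ligand arrays were spread on both sides of them (SD 519), with a log2 difference of -0.25 ± 0.31 (SE).

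Probe set 203497_at of MED1 gave another order of arrays, with signals of 714, 560 and 632 with vehicle and 346, 710 and 667 with the ligand. Here ligand array 1 was the low value, while on 225452_at it was ligand array 2. The log2 difference was -0.20 ± 0.31 (SE), and without ligand array 1 it was 0.12. Probe set 225456_at had signals of 343, 541 and 459 with vehicle and 390, 323 and 363 with the ligand, with a log2 difference of -0.29 ± 0.28 (SE) that ran from -0.46 to -0.14 with vehicle arrays 1 and 2 left out in turn. Probe set 203496_s_at was the dimmest tested member, with signals of 75.4, 167 and 144 with vehicle and 218, 238 and 138 with the ligand. Its mean was 128.8 with vehicle and 197.9 with the ligand, so it reached the limit for testing, 129.3, only through its ligand arrays. With all 6 arrays it had the largest log2 difference of any member in size, 0.59 ± 0.49 (SE), and the widest 95% interval, from -0.49 to 1.67. Without vehicle array 1 that difference was 0.29.

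The members were then compared with each other over the 6 arrays, a comparison chosen after their values were seen. Each gene was represented by its brightest tested probe set. On ligand array 1, 6 of the 7 genes lay above their own mean and MED1 lay below it, while over all tested probe sets 52.4% lay above their mean on that array. On ligand array 2, 1 of 7 lay above, NRIP1, beside 53.3% of all tested probe sets. On vehicle arrays 1 to 3 the counts were 3, 5 and 1 of 7, and on ligand array 3 the count was 4 of 7.

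For these probe sets of NR1H3, RXRA, RXRB, GPS2, NCOA1 and MED1, the log2 SD of the ligand arrays exceeded the distance between the groups. For NRIP1 the SD was smaller, at 0.17 against a log2 difference of 0.41. Ligand array 1 also stood apart over the whole array, at -89.8 on the first principal component (23.0% of the variance) with the other 5 arrays from 0.632 to 36.8. The part of this in the member values was not tested, and several member values without ligand array 1 are given above.

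Among the 21 pairs of these 7 genes, Pearson's r over the 6 arrays ran from -0.55 to 0.87. By an exact permutation test 2 pairs had an unadjusted p under 0.05 for r and 1 for Spearman's rho, and 0 passed after Benjamini-Hochberg adjustment over the 21 pairs, where the lowest adjusted p was 0.292 for r and 0.350 for rho. NR1H3 and RXRA had the highest r, 0.87 (n = 6, exact permutation p = 0.0222, adjusted p = 0.292), and a rho of 0.83 (exact permutation p = 0.0583, adjusted p = 0.540). Without the 2 arrays farthest from the median of NR1H3, ligand arrays 1 and 2, r was 0.45 over the 4 that were left, a narrower range. It was 0.75 without ligand array 1 and 0.90 with the group means removed. Of all tested probe sets, 1.26% had an r with NR1H3 at least as high as that of RXRA. RXRA and NCOA1 had an r of 0.84 (n = 6, exact permutation p = 0.0347, adjusted p = 0.292) and a rho of 0.94 (exact permutation p = 0.0167, adjusted p = 0.350), and r was 0.39 without ligand arrays 1 and 2. NCOA1 is here the x probe set.

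**Figure D3:**
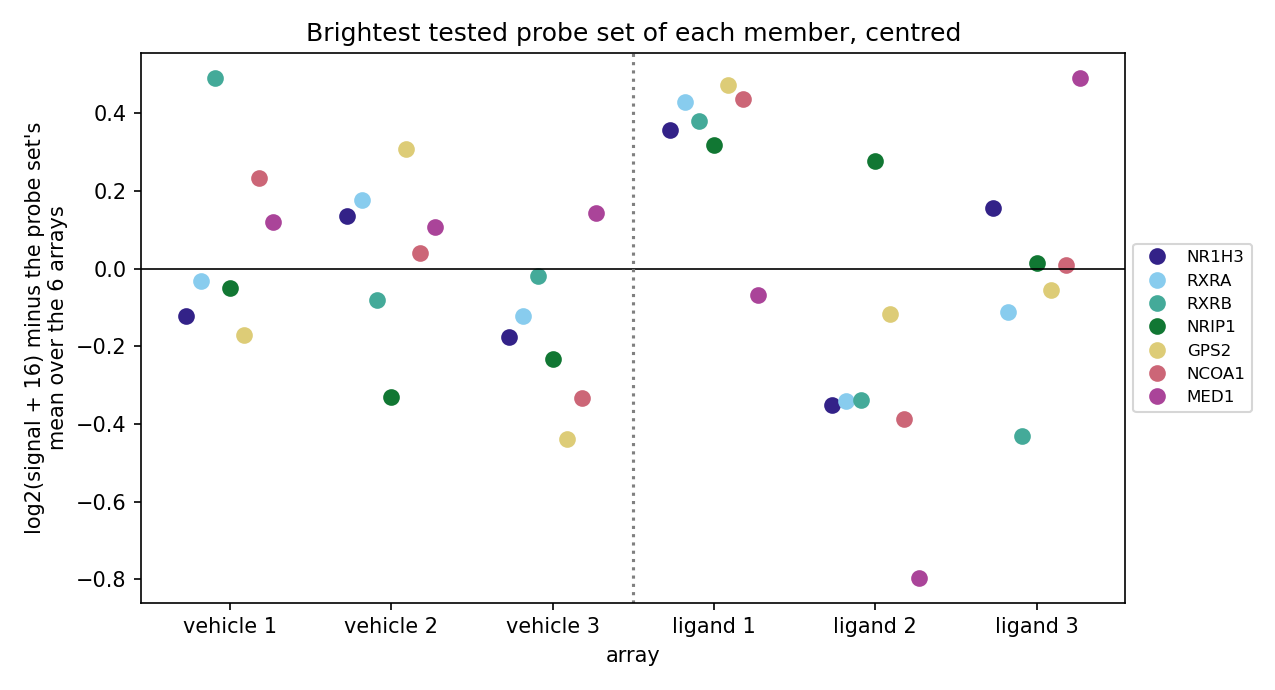
Centred level, log2(signal + 16) minus the probe set's mean over the 6 arrays (vertical axis), of the brightest tested probe set of each of the 7 measured genes (colours) on each array (horizontal axis). On ligand 1, 6 of the 7 points lie above 0, and on ligand 2, 1 of the 7 does.

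The genes whose pattern over the 6 arrays was most like that of NR1H3 were sought among all tested probe sets with 1 symbol, by the root mean square difference of centred log2 values. They were ALCAM at 0.062, UBE2J2 at 0.064 and SLF2 at 0.065, where NR1H3 itself varied by 0.24 around its mean. For RXRA, which varied by 0.25 around its mean, they were EMC3 at 0.039, EXT1 at 0.059 and FBXL18 at 0.066. The log2 differences of these genes between the groups were -0.060 to 0.11. A choice by likeness over the same 6 arrays holds them near those of NR1H3 and RXRA. No other member was among the 3 nearest of either gene.

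RXR also pairs with other nuclear receptors, which compete with LXR for it, and 10 of 13 listed RXR genes and partner receptors were measured by a tested probe set. NR1H4, NR1I2 and RXRG were not. Of the 10, 5 were higher and 5 lower with the ligand, beside 50.3% of all tested probe sets higher, and 0 passed in limma. Their median log2 difference was 0.0092, beside 0.0027 over 13349 genes tested. At an unadjusted limma p under 0.05, 2 of the 10 were lower, beside 2.33% of all tested probe sets, and 1 when the spread was modelled without the trend. Groups did not overlap for 2 of the 10, both lower, beside 4.96% of all tested probe sets. The genes described next had the smallest p in this list.

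RARG, a retinoic acid receptor, had signals of 722, 849 and 831 with vehicle and 416, 561 and 448 with the ligand, with a log2 difference of -0.74 ± 0.25 (SE) and a limma adjusted p of 0.829. Its groups did not overlap, but the log2 difference of the gene's other tested probe set was 0.13. PPARA, the fatty acid receptor that drives oxidation genes, had signals of 4849, 3371 and 4620 with vehicle and 3115, 2548 and 3234 with the ligand. Its log2 difference was -0.52 ± 0.21 (SE) at a limma adjusted p of 0.874, the groups did not overlap, and all 6 of its tested probe sets were lower, from -0.81 to -0.17. VDR, the vitamin D receptor, had signals of 34.3, 49.9 and 321 with vehicle and 226, 185 and 226 with the ligand, so that its log2 difference of 1.13 ± 0.71 (SE) became 0.61 without vehicle array 1 and 1.98 without vehicle array 3. THRB, a thyroid hormone receptor, had a log2 difference of 0.25 ± 0.22 (SE). Dropping vehicle array 3 reduced it to 0.083. All 3 of its tested probe sets were higher, by up to 1.34.

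The other corepressor, coactivator and Mediator genes were listed in the same way, and 39 of 45 were measured. Of these 16 were higher and 23 lower, and 0 passed in limma. Median centring of the arrays left 12 of the 39 higher, and the mean over each gene's tested probe sets gave 20 of 39. Their median log2 difference was -0.040. In the corepressor complexes 4 of 6 were higher, among the coactivators 4 of 12, and in Mediator 8 of 21. These counts, and the 16 of 39, stand beside 50.3% of all tested probe sets that were higher. At an unadjusted limma p under 0.05, 2 were higher and 1 lower, beside 3.24% and 2.33% of all tested probe sets, and 0 of the 39 when the spread was modelled without the trend.

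TBL1X, a subunit of the NCOR complex that takes part in exchanging corepressors for coactivators, had signals of 1274, 1453 and 1709 with vehicle and 2639, 1713 and 2374 with the ligand. Its log2 difference was 0.58 ± 0.24 (SE) at a limma adjusted p of 0.873, and vehicle array 3 and ligand array 2 almost touched. The gene has 5 tested probe sets, 4 of them higher and 1 lower, from -0.20 to 0.96. KAT2B, a histone acetyltransferase, had signals of 1407, 1242 and 1043 with vehicle and 2278, 3481 and 1222 with the ligand. Ligand array 3 lay among the vehicle arrays, and the log2 difference of 0.80 ± 0.34 (SE) became 0.45 without ligand array 2 and 1.19 without ligand array 3.

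Among Mediator subunits, MED28 had signals of 1362, 1316 and 1658 with vehicle and 873, 1020 and 1124 with the ligand. Its log2 difference was -0.52 ± 0.22 (SE) at a limma adjusted p of 0.879, and all 5 of its tested probe sets were lower, from -0.70 to -0.13. MED21 had signals of 791, 820 and 942 with vehicle and 1483, 963 and 1167 with the ligand, a log2 difference of 0.48 ± 0.24 (SE) at a limma adjusted p of 0.880, and 0.32 without ligand array 1. The groups of MED28 and of MED21 did not overlap, in opposite directions. Of the 39 genes, 2 had groups that did not overlap and were higher, TBL1X and MED21. Another 3 were lower, MED28, MED31 and CREBBP. Over all tested probe sets these shares were 5.99% higher and 4.96% lower. TBL1X, KAT2B, MED28 and MED21 were named because they had the smallest p in their list.

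Target genes of LXR were set beside the receptors as the readout of ligand action. Of 17 measured targets of 19 listed, NR1H3 among them, 14 were higher and 3 lower, beside 50.3% of all tested probe sets higher. The median log2 difference of the targets was 0.69, and 7 had an unadjusted limma p under 0.05, all of them higher, beside 3.24% of all tested probe sets. None passed after adjustment over all probe sets. The 3 lower were SMPDL3A at -0.25, LPCAT3 at -0.17 and MLXIPL at -0.093. Ligand array 1 carried APOE, at 128135 with no other array above 22463, and SCD, at 1503 with no other array above 427. The genes described next had the smallest p in this list. SREBF1, the transcription factor of fatty acid synthesis genes, had a log2 difference of 2.57 on its brightest probe set, at a limma adjusted p of 0.370, and -0.60 on the other. ABCG1, a sterol efflux transporter, had 1.31 at a limma adjusted p of 0.387, and its 4 tested probe sets ran from 0.043 to 1.39. MYLIP, a ubiquitin ligase for lipoprotein receptors, had 1.36, and ABCA1, the cholesterol efflux transporter, 0.77, or 0.48 without vehicle array 1. The 4 tested probe sets of MYLIP ran from 0.70 to 1.36 and the 2 of ABCA1 from 0.61 to 0.77. NR1H3 had the 0.11 given above. The summed macrophage markers were higher in the same 3 arrays, and their part in the target values was not tested.

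**Figure D4:**
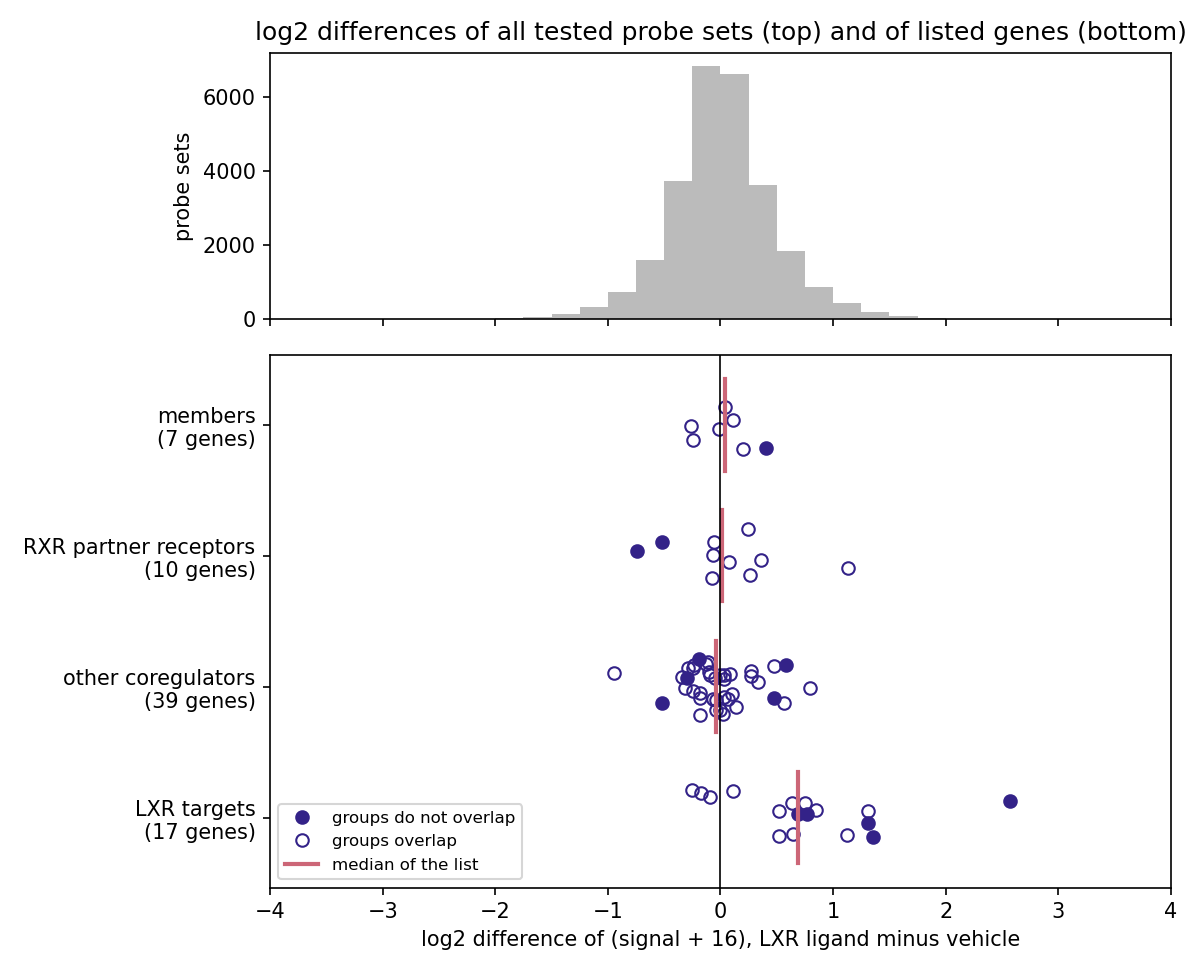
log2 difference of (signal + 16), LXR ligand minus vehicle (horizontal axis), as the number of tested probe sets in each bin (top) and for each measured gene of 4 lists (bottom), with filled points where the groups do not overlap and a red line at each list's median. The medians are 0.040 for the members, 0.0092 for RXR partner receptors, -0.040 for the other coregulators and 0.69 for LXR targets.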

How the data were processed

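The authors deposited 1 table of intensity values, MAS5 signals per the submitters' processing notes, for 6 arrays; version, scaling target and filters were not given in the sources used here. Their 2% trimmed mean was 500.1 on every array, and no log had been taken. Groups and array numbers came from the titles. Values were transformed to log2(signal + 16). The 62 control probe sets and probe sets with a mean signal below 129 were left out, and 27304 were tested on the 6 arrays by limma 3.58.1 (R 4.3.3; lmFit, then eBayes with trend = TRUE; two-sided). The model held the group and no covariate, p-values were adjusted by Benjamini-Hochberg, and the threshold was 0.05. The procedure was tested on simulated data. In gene lists a gene was represented by its brightest tested probe set with 1 symbol. Percentages set beside list counts are shares of all tested probe sets, not of genes. Of 13349 genes represented in this way, 494 were higher and 323 lower at an unadjusted limma p under 0.05. Groups did not overlap for 829 of them that were higher and 695 that were lower. The named genes were all members, up to 4 genes with the smallest p of each of 2 related lists, 4 LXR targets and the 3 genes nearest in pattern to NR1H3 and to RXRA. Members and lists were chosen with earlier results of these data known. A planned comparison of NR1H3 with NR1H2 was not made, since NR1H2 was not analysed here. The alternatives tried were no filter, a filter at the 75th percentile, median centring, quantile normalization, pseudocounts of 1 and 64, eBayes without trend or robust, leaving out each array, a block for the replicate number and, for gene lists, the mean over a gene's tested probe sets. Cell type marker signals were summed per array. Of the lists not described elsewhere, 1 of 3 measured cholangiocyte markers and 2 of 3 T and NK cell markers were higher with the ligand. CD8A, 1 of these 2, reached the limit for testing only through its ligand arrays. RNA quality, read from the actin and GAPDH controls as the log2 excess of the 3' over the 5' probe set, was 1.95 ± 0.40 (SD, n = 3) with vehicle and 2.31 ± 0.62 (SD, n = 3) with the ligand, at p = 0.60 in an exact two-sided permutation test. The number of arrays limits the precision. Plots were made in matplotlib 3.10.9 (Python 3.11.15).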

Additional observations from a re-analysis of the deposited data

How the results depend on the processing

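Of 237 member values recomputed under the 15 alternatives, 222 kept their direction, 15 turned sign and 0 were called. Of the 16 probe sets, 9 kept their direction throughout. The filters, eBayes without trend or robust, and the replicate block leave each log2 difference as it was. Direction could therefore turn only under the other alternatives, and the count of 222 includes values that could not turn. With median centring, NCOA1 209107_x_at was -0.0038 and 210249_s_at -0.039. With single arrays left out, NR1H3 ran from -0.044 to 0.31, RXRA 202449_s_at from -0.23 to 0.15, NCOA1 209107_x_at from -0.17 to 0.24, NCOA1 210249_s_at from -0.052 to 0.059, NCOA1 209106_at from -0.11 to 0.11, MED1 225452_at from -0.55 to 0.088 and MED1 203497_at from -0.38 to 0.12; the cause was not tested. With arrays left out, calls over all probe sets ran from 0 to 1, members with an unadjusted p under 0.05 from 0 to 1, members higher from 5 to 9, RXR partner receptors higher from 4 to 7, other coregulators higher from 15 to 17 (12 with median centring), and the median of LXR targets from 0.51, when ligand array 1 was dropped, to 0.85. Without ligand array 2 the single call was SREBF1, at a log2 difference of 3.06 and a limma adjusted p of 0.0453, and without vehicle array 2 it was ACAA2, a thiolase of fatty acid oxidation named after its value was seen, at -3.69 and 0.00387. With the filter at the 75th percentile, where fewer genes were tested, 3 partner receptors were higher. With the mean over each gene's tested probe sets, 6 partner receptors and 20 other coregulators were higher, and the LXR target median was 0.64. At an unadjusted limma p under 0.05, eBayes without the trend left 1 partner receptor, 0 other coregulators and 6 LXR targets, and with arrays left out LXR targets higher at that p ran from 5 to 8. Deviations of same-numbered arrays from their group means correlated at 0.040, -0.031 and 0.070, so no pairing by replicate number was seen. With the replicate number as a block 0 probe sets were called. Each number was held by an array of each group, so the block could not change a log2 difference or the count of members higher. The RXRA minus RXRB difference, 0.24, ran from 0.045 to 0.44 with arrays left out, and that of the 3' to 5' ratio, 0.36, from 0.0020 to 0.57, both recomputed with alternatives chosen after seeing the data. The median SE of the members was 0.26 with 3 arrays per group.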
